A study of Mus musculus with 2 samples.

Results

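The elastic fibre and matricellular genes described here are Eln, Fbn1, Fbln5, Fbln2, Emilin1, Ltbp4, Mgp, Sparc, Sparcl1 and Fn1. They were chosen by symbol, which gave 10 genes of the 28625 symbols in the deposited tables. No limit on their levels was part of that rule, but the choice was made with earlier results of these data known. The data are single-cell RNA sequencing of CD31+ cells that were isolated with beads from the mesentery of C57BL/6 mice at postnatal day 8 (P8). There was 1 control library and 1 library from Flcn iΔEC mice, in which Flcn, encoding the tumor suppressor folliculin, was deleted with a tamoxifen-inducible Cre driven by Cdh5 regulatory sequence, a driver of endothelial cells. For both libraries the labels give 4 injections of 40 μg of 4-hydroxytamoxifen, the first at P2, the next at P3.5, then P5, and the last at P6.5, and they do not give the alleles that the control mice carried. Each library pooled the cells of several mice per genotype, so animals cannot be told apart. As each condition was a single library, conditions could not be tested against each other, and all 95% intervals below cover counting error only.

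Elastic fibres give large vessels their recoil. Tropoelastin, the product of Eln, is laid down on a scaffold of fibrillin microfibrils with the help of fibulins and latent TGF-β binding proteins and is then crosslinked by lysyl oxidases. Elastic lamellae are a feature of arteries, and smooth muscle cells are the best known source of elastin in the vessel wall, although endothelial cells also make it. Matricellular proteins are secreted proteins that modulate how cells meet their matrix without being main structural parts of it.

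All genes are on GRCm38. The fibre core genes are Eln (chr5:134702593-134747323, minus strand) and Fbn1 (chr2:125300594-125507993, minus strand), the gene of fibrillin-1, the main microfibril protein. The assembly genes are Fbln5 (chr12:101746565-101819055, minus strand), whose product binds tropoelastin and cell-surface integrins, Fbln2 (chr6:91212455-91272540, plus strand), which encodes a fibulin of basement membranes and elastic fibres, Emilin1 (chr5:30913402-30921277, plus strand), which encodes a glycoprotein at the interface of elastin and microfibrils that also anchors lymphatic endothelium, and Ltbp4 (chr7:27305136-27337692, minus strand), whose product binds latent TGF-β and fibulin-5. Among the matricellular genes, Mgp (chr6:136872435-136875823, minus strand) encodes matrix Gla protein, an inhibitor of vascular calcification, Sparc (chr11:55394500-55423183, minus strand) encodes a collagen-binding glycoprotein also called osteonectin, and Sparcl1 (chr5:104079111-104113733, minus strand) encodes its relative hevin. Fn1 (chr1:71585520-71653200, minus strand) encodes fibronectin, the ligand of several integrins and an early scaffold of matrix assembly. No sequence of these genes is shown.

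There were 6814 control cells with 64639756 UMIs (unique molecular identifiers, each tagging 1 captured RNA molecule) and 4459 Flcn iΔEC cells with 60805779 UMIs. At least 2 UMIs of Cdh5, the gene of VE-cadherin, were found in 566 control and 892 Flcn iΔEC cells, which were taken as endothelial, with a median of 16127 and 24415 UMIs per cell. The libraries shared 6 barcodes. They differed in sex-linked genes, with 9 Xist UMIs among control cells and 63462 among Flcn iΔEC cells, and 15535 and 17 UMIs of 4 Y-linked genes, so that sex and genotype cannot be told apart. Flcn itself was at 10.3 UMIs per 1000000 UMIs (CPM) in control endothelial cells and at 9.74 CPM in those of the Flcn iΔEC library, and 3′ counts can miss the deletion of an internal exon.

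Each endothelial cell was scored on marker lists and given the class of its leading list, which gave 102 control and 137 Flcn iΔEC arterial-like cells, 99 and 157 venous-like, 123 and 46 blood capillary-like, and 62 and 323 lymphatic-like cells, called arterial, venous, capillary and lymphatic below. No class was given to 83 control and 116 Flcn iΔEC cells, and in 50 and 46 cells the lead over the next list fell just short of its limit. Mesenchymal cells, 33 in each library, had under 2 Cdh5 UMIs and at least 3 fibroblast or 3 mural markers, and Cdh5 was at 0 UMIs in both groups. None of the 10 genes was a marker. A UMI of Ptprc, the gene of the leukocyte protein CD45, was found in 17 control and 17 Flcn iΔEC arterial cells, 29 and 24 venous, 16 and 10 capillary, 8 and 25 lymphatic, and 8 and 5 mesenchymal cells. Levels are summed UMIs of a gene over a class as CPM. As only the 3′ end of transcripts was counted, a level is compared between classes and libraries and not between genes.

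Classes were not made of the same clusters in both libraries. Arterial cells lay mainly in cluster 3, with Cxcl12, Sema3g and Sox17 among its leading genes (56 control and 25 Flcn iΔEC cells), and cluster 8, with Gja5, Sfrp1 and the smooth muscle gene Acta2 among them (37 and 93 cells). Of the venous cells, 56 control and 0 Flcn iΔEC cells lay in cluster 5 (leading genes Spp1, Nrg1 and Col3a1, a fibroblast marker), and 0 and 107 in cluster 16 (leading genes Procr, Aqp1 and Bmp4). No venous marker was among the 10 leading genes of either cluster. Capillary cells were mainly in cluster 6 (62 and 16 cells, leading genes Apln, Esm1 and Rgcc) and the arterial-led cluster 3 (36 and 6 cells) in the control, while those of the Flcn iΔEC library were split between cluster 6, cluster 13 (0 control and 14 Flcn iΔEC cells, leading genes Esm1, Col13a1 and Inhbb), cluster 1 (3 and 8 cells, led by high endothelial venule genes such as Glycam1 and Fut7) and cluster 3. The control lymphatic cells were mainly in cluster 0 (26 cells, leading genes Ackr4 and Igf1, with the capillary marker Btnl9 among them), and the Flcn iΔEC lymphatic cells in cluster 14 (138 cells, 0 in the control) and cluster 12 (109 cells, 11 in the control). Values between libraries are therefore also given by cluster number.

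The 10 genes took a larger share of the RNA of arterial cells than of any other class. They made up 4.92% of all UMIs of control arterial cells and 5.62% in the Flcn iΔEC library, against 2.90% and 1.65% in venous, 2.22% and 2.60% in mesenchymal, 0.722% and 0.766% in capillary, and 0.290% and 0.233% in lymphatic cells. In lymphocytes, which were taken to show the level of free RNA, they made up 62.7 CPM in the control and 93.9 CPM in the Flcn iΔEC library. Emilin1 held 4.97% and 2.86% of these UMIs, against 0.172% and 0.186% in arterial and 4.25% and 3.49% in lymphatic cells. Whether lymphocytes express Emilin1 was not tested. All 10 genes stood above the lymphocyte level in arterial, venous and mesenchymal cells of both libraries, with the lower bound of their interval over the upper bound of the lymphocytes. Among the 4 endothelial classes, 6 of the 10 genes had their highest level in arterial cells in the control library and 8 in the Flcn iΔEC library. In the control, Sparc was 1 of these by a ratio of only 1.05 over capillary cells. The share of all genes with their highest level in arterial cells is not given here.

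Counted at 2-fold, 5 of 10 genes were higher in arterial than in venous cells of the control and 0 were lower, against 5.04% and 6.62% of all genes. In the Flcn iΔEC library 8 were higher and 0 lower, against 4.96% and 6.92%. Arterial over capillary cells gave 8 higher and 0 lower in both libraries, against 7.14% and 5.98% of all genes in the control and 8.08% and 7.91% in the Flcn iΔEC library. Arterial over lymphatic cells gave 7 and 8 higher and 0 lower, against 9.49% higher and 8.66% lower of all control genes and 11.3% and 12.1% in the Flcn iΔEC library. Mesenchymal cells had 0 genes past 2-fold above arterial cells and 5 below in the control, against 7.09% and 16.7% of all genes, and 1 above (Fbn1) and 5 below in the Flcn iΔEC library, against 8.62% and 16.1%. Fbln5, Fbln2, Ltbp4 and Mgp were below in both.

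**Figure D1:**
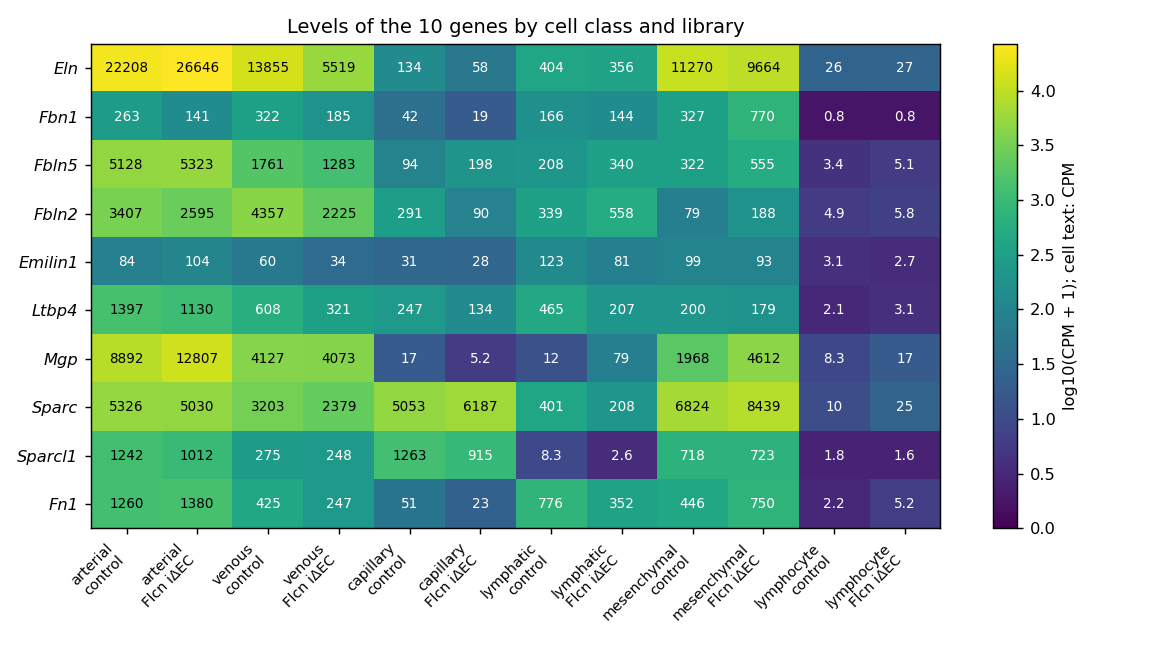
Levels of the 10 genes (rows) in each class and library (columns), coloured by log10(CPM + 1) with the CPM printed in each field; lymphocytes give the background. Eln is at 22208 and 26646 CPM in arterial cells and at 26.0 and 26.6 CPM in lymphocytes.

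Summed over the class, Eln was highest in arterial cells of both libraries. In the control this rested on the arterial cells of cluster 8, at 43231 CPM. Those of cluster 3 were at 5143 CPM, below the venous and mesenchymal sums. Arterial cells had 22208 CPM (95% interval 21997 to 22420) in the control library, and 26646 CPM (26473 to 26820) in the other. Venous cells had 13855 CPM in the control and 5519 CPM in the Flcn iΔEC library, and mesenchymal cells 11270 and 9664 CPM. Lymphatic cells, at 404.5 and 355.6 CPM, and capillary cells, at 134 and 58.4 CPM, were far below. The arterial level exceeded the capillary level by 165-fold in the control and by 456.5-fold in the Flcn iΔEC library, and neighbouring classes in the order of levels had intervals that did not overlap in either library. The arterial sum also exceeded that of the mesenchymal cells whose mural markers outnumbered their fibroblast markers, 12 in each library, in which Eln was at 15346 and 16842 CPM. Arterial cells of cluster 3 alone, at 5143 and 12014 CPM, were below these mural-led cells in both libraries. The 8 mural markers together stood at 593 and 685 CPM in arterial and at 10346 and 9735 CPM in mesenchymal cells, and their part in the arterial level of Eln was not tested.

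Fbn1 differed from Eln in the order of its classes. Its level in the control was 327 CPM in mesenchymal cells, 322 CPM in venous, 263 CPM in arterial, 166 CPM in lymphatic and 41.9 CPM in capillary cells, and the intervals of the first pair overlapped. In the Flcn iΔEC library mesenchymal cells were at 770 CPM and the endothelial classes between 18.8 and 185 CPM. Fbn1 was the only one of the 10 genes at least 2-fold higher in mesenchymal cells than in each endothelial class, which held in the Flcn iΔEC and not in the control library.

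The assembly genes Fbln5 and Ltbp4 were highest in arterial cells, while Fbln2 was shared by arteries and veins. Fbln5 stood at 5128 and 5323 CPM in arterial and at 1761 and 1283 CPM in venous cells, and it was between 93.6 and 555 CPM in the other classes. Ltbp4 was at 1397 and 1130 CPM in arterial and at 608 and 321 CPM in venous cells. Fbln2 had its highest level in venous cells of the control (4357 CPM, against 3407 CPM in arterial cells) and in arterial cells of the Flcn iΔEC library (2595 against 2225 CPM). Mesenchymal cells held little Fbln2, at 78.8 and 188 CPM. Emilin1 was the flattest of the genes, with 123 and 81.2 CPM in lymphatic, 84.5 and 104 CPM in arterial and 99.1 and 92.9 CPM in mesenchymal cells, and its lymphatic, mesenchymal and arterial intervals overlapped with their neighbours in both libraries. The highest class exceeded the lowest, the capillary cells, by 4.00-fold and 3.71-fold.

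Mgp ran parallel to Eln, and Sparc and Sparcl1 ran parallel to each other. Mgp was at 8892 and 12807 CPM in arterial, 4127 and 4073 CPM in venous and 1968 and 4612 CPM in mesenchymal cells. It was at 17.5 and 5.21 CPM in capillary cells, against 8.28 and 17.4 CPM in lymphocytes, which left the capillary cells of the Flcn iΔEC library below the background. From its lowest class, lymphatic cells in the control and capillary cells in the Flcn iΔEC library, to its highest Mgp spanned 755-fold and 2457-fold, the widest of the 10 genes in both libraries. Sparc was high in every class except the lymphatic one, with 5326 and 5030 CPM in arterial, 5053 and 6187 CPM in capillary, 3203 and 2379 CPM in venous and 6824 and 8439 CPM in mesenchymal cells, and 401 and 208 CPM in lymphatic cells. Sparcl1 was at 1242 and 1012 CPM in arterial and 1263 and 915 CPM in capillary cells, and it was at 8.31 and 2.58 CPM in lymphatic cells. Capillary cells thus held much Sparc and Sparcl1 and little of the fibre genes, and Sparc alone made up 70.0% and 80.8% of the UMIs of the 10 genes there, against 10.8% and 8.96% in arterial cells.

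Summed over the class, Fn1 was highest in arterial cells of both libraries. Control arterial cells of cluster 8 had 2191 CPM, while those of cluster 3 had 518 CPM, below the sum of control lymphatic cells. Arterial cells had 1260 and 1380 CPM, lymphatic cells 776 and 352 CPM, mesenchymal cells 446 and 750 CPM, venous cells 425 and 247 CPM, and capillary cells 50.6 and 22.9 CPM. In the control, lymphatic cells had the second highest level of Fn1, and it was the gene with the largest share of the 10 genes' UMIs there, at 26.7%.

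Across the 10 sums of UMIs by class and library, Pearson's r of log2(CPM + 1) was 0.97 for Eln with Mgp and 0.98 for Sparc with Sparcl1. It was 0.83 for Eln with Fbln5, 0.79 for Eln with Fbn1, 0.37 for Eln with Sparc and -0.17 for Sparcl1 with Fn1. These 10 points share 2 libraries, and the values are a description. Of 5262 genes that reached 50 CPM in at least 1 sum, Mmp2 (r = 0.98), which encodes a gelatinase, was nearest to Eln, followed by Mgp and Palld (r = 0.97 each). Mef2d, Tusc3 and Sparcl1 were nearest to Sparc (r = 0.98 each), and Cpq (r = 0.97), Ltbp3 (r = 0.94) and Sdc1 (r = 0.93) to Fn1. Thbs3 (r = 0.96), Fndc1 (r = 0.95) and Nfix (r = 0.94) were nearest to Fbn1, and Lman1 (r = 0.96), Sulf1 (r = 0.96) and Ccdc50 (r = 0.93) to Fbln5. For Fbln2 they were Ctsh (r = 0.95), Thsd7a (r = 0.94) and Myrip (r = 0.93), for Emilin1 Hsp90b1 (r = 0.97), Khdrbs3 (r = 0.93) and Gucy1b3 (r = 0.91), and for Ltbp4 Bsg (r = 0.97) and Nhsl2 (r = 0.95). Eln, Mmp2 (r = 0.97 each) and Emp2 (r = 0.96) were nearest to Mgp, and Sparc, Mcam (r = 0.98 each) and Lims2 (r = 0.97) to Sparcl1.

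The cells within a class were far from alike. The quartiles of Eln per cell were 669 and 40146 CPM around a median of 9663 CPM in control arterial cells, and 17443 and 36911 CPM around 26352 CPM in Flcn iΔEC arterial cells. Across the 102 control arterial cells, Pearson's r of the cells' levels was 0.92 for Eln with Mgp, 0.89 for Eln with Fbln5 and 0.87 for Eln with Fbln2, and 20 of the 45 pairs of the 10 genes exceeded 0.5. In the 137 Flcn iΔEC arterial cells 11 of 45 pairs did, with 0.87 for Eln with Mgp. These cells share a library, and r of Eln with the log of a cell's UMIs was 0.22 for control arterial cells and 0.0038 for Flcn iΔEC ones. In lymphatic cells 0 of 45 pairs exceeded 0.5 in either library. How many pairs of other genes did so is not given here. The arterial class mixed its clusters in different proportions between the libraries, and the part of that mix in these counts was not tested.

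**Figure D2:**
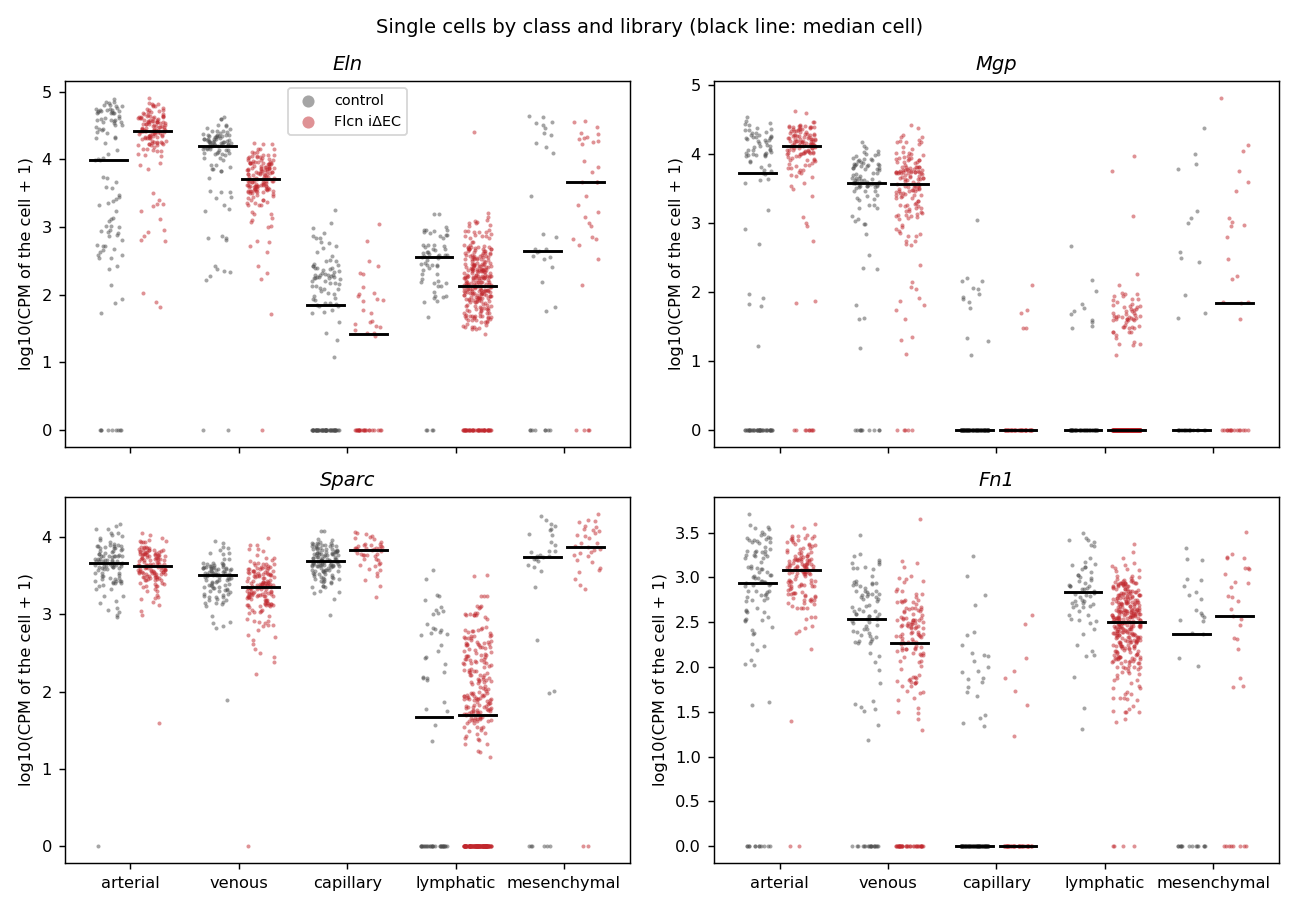
Each point is 1 cell, placed by class (horizontal) and by its level of Eln, Mgp, Sparc or Fn1 as log10(CPM + 1) (vertical), with control in grey, Flcn iΔEC in red and the median cell as a black line. Control arterial cells spread over a wide range of Eln around a median of 9663 CPM, and venous cells of the Flcn iΔEC library sit lower (median 5155 CPM) than those of the control (16004 CPM).

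That spread in the arterial class followed its clusters. In the control, Eln was at 5143 CPM in arterial cells of cluster 3 and at 43231 CPM in those of the Gja5-led cluster 8. Fbln5 was at 2435 and 8809 CPM there, Fbln2 at 1999 and 5385 CPM, Mgp at 3409 and 16283 CPM, and Fn1 at 518 and 2191 CPM. Fbn1 went the other way, with 367 CPM in cluster 3 and 166 CPM in cluster 8, and Sparcl1 was at 1358 and 1250 CPM. The genes that lead a cluster were chosen on the same cells, but the 10 genes were kept out of the clustering. Gja5 encodes connexin 40, a gap junction protein of larger arteries.

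The first question between the libraries was whether arterial cells differed, and over the whole class they differed little. None of the 10 genes passed a 2-fold ratio, against 7.18% of 8456 genes with at least 50 UMIs, of which 2.65% were higher and 4.53% lower. Their median log2 ratio (Flcn iΔEC over control, with 1 UMI added) was -0.01, against -0.14 over all these genes. The ratios ran from 0.537 for Fbn1 (95% interval 0.473 to 0.610) to 1.44 for Mgp (1.42 to 1.47), with 5 genes above and 5 below 1. For Eln the ratio was 1.20 (1.19 to 1.21) and for Sparc 0.944 (0.921 to 0.968).

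By cluster, some arterial genes differed in opposite directions. In the arterial cells of cluster 8, Eln was at 43231 CPM in the control and 32507 CPM in the Flcn iΔEC library (ratio 0.752, 0.742 to 0.762). Fbln2 was at 5385 and 2975 CPM there (ratio 0.552, 0.532 to 0.574), Ltbp4 at 1875 and 1188 CPM (0.633), Fbln5 at 8809 and 5982 CPM (0.679) and Fn1 at 2191 and 1560 CPM (0.712), while Mgp was at 16283 and 15532 CPM (0.954). All 10 genes thus had ratios under 1 in cluster 8, and the intervals of Emilin1 and Sparcl1 held 1. Over all genes the median log2 ratio was -0.14 in the whole arterial class, and that of cluster 8 is not given here. The log2 ratios of Mgp and Sparcl1 (-0.07 each) and Emilin1 (-0.11) in cluster 8 did not fall below that median. In cluster 3, Eln was at 5143 CPM in the control and 12014 CPM in the Flcn iΔEC library (ratio 2.34, 2.25 to 2.42), Fbln5 and Mgp both had a ratio of 1.79, Fn1 had a ratio of 1.56, and Sparcl1 a ratio of 0.436. With equal weight for both clusters, the log2 ratio of Eln over the class turned from 0.26 to -0.12, that of Fbln5 from 0.05 to -0.12 and that of Fn1 from 0.13 to -0.19. Cluster 3 held 25 Flcn iΔEC arterial cells and cluster 8 held 37 control ones, and whether cells of a cluster are the same vessel segment in both libraries was not tested.

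**Figure D3:**
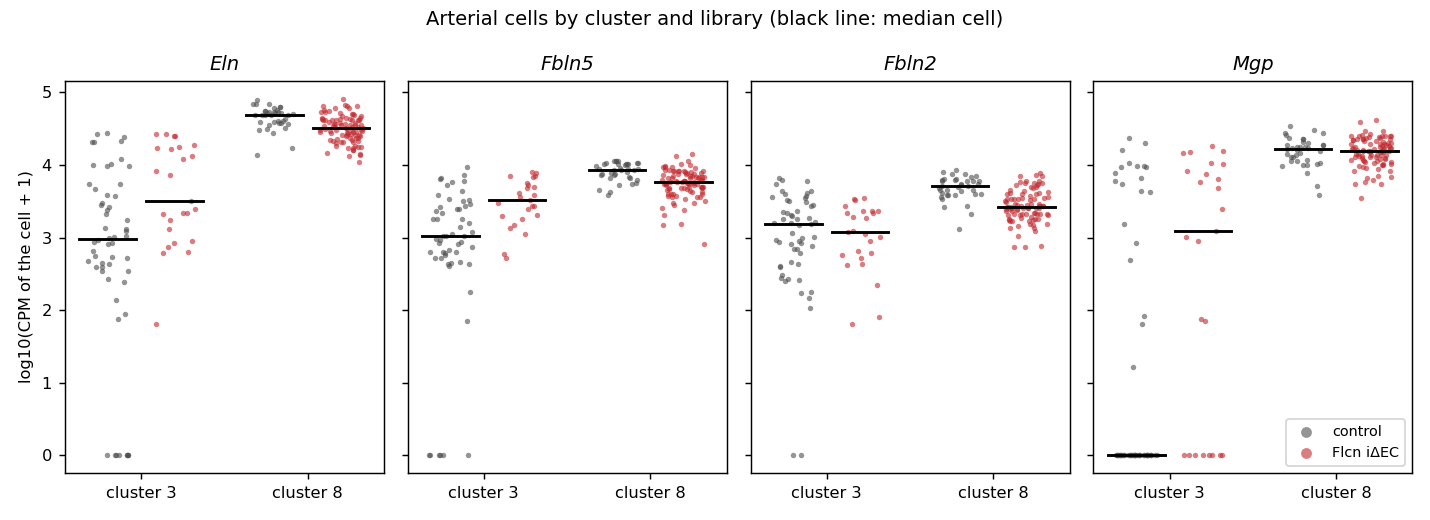
Each point is 1 arterial cell, by cluster and library (horizontal, control grey, Flcn iΔEC red) and by its level of Eln, Fbln5, Fbln2 or Mgp as log10(CPM + 1) (vertical), with the median cell as a black line. In cluster 8 the median of Eln is 49130 CPM in the control and 32258 CPM in the Flcn iΔEC library, and in cluster 3 it is 954 and 3220 CPM.

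In venous cells all 10 genes had a lower level in the Flcn iΔEC library, and the interval of the ratio lay below 1 for 9 of them, with Mgp the exception. The shares of all genes with a lower level or with such an interval are not given here. The median log2 ratio was -0.79, against -0.08 over all 9593 genes with enough UMIs. Eln, at 13855 CPM in the control and 5519 CPM in the Flcn iΔEC library (ratio 0.398, 0.392 to 0.405), was the 1 gene past 2-fold, against 7.62% of all genes (2.81% higher and 4.81% lower). Fbln2 (ratio 0.511), Ltbp4 (0.527), Emilin1 (0.574), Fbn1 (0.574) and Fn1 (0.581) came close to it. Fbln5 was at 0.728, Sparc at 0.743 and Sparcl1 at 0.901 of the control, and Mgp was at 4127 and 4073 CPM (0.987, 0.964 to 1.01). The direction of these last genes depended on the setting: the log2 ratio of Mgp kept its sign in 8 of 15 settings, between -0.18 and 0.19, and that of Sparcl1 in 14 of 15, with 0.05 when the lead of the class score was 0.4. The other 8 genes were lower in all 15.

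Eln was also lower in the venous cells of clusters 2 and 7, which held such cells of both libraries. Cluster 2 was led by Defa24, Spink4 and Epcam, followed by cell cycle genes such as Plk1 and Ube2c. In its venous cells, 13 in each library, Eln was at 13505 and 4829 CPM (ratio 0.358, 0.343 to 0.372). In those of cluster 7, led by lymphocyte genes such as Ifng and Ccl5, with 13 control and 21 Flcn iΔEC cells, it was at 12201 and 4553 CPM (0.373, 0.357 to 0.390). Fbln2 had ratios of 0.512 and 0.493, Ltbp4 of 0.490 and 0.484, and Fn1 of 0.361 and 0.365 in these clusters. Mgp was lower in cluster 2 (0.450) and higher in cluster 7 (1.08, 1.02 to 1.15), and Sparcl1 had ratios of 1.08 (0.848 to 1.38) and 1.44 (1.10 to 1.90). Cells with a Ptprc UMI made up 29 of the 32 control and 47 of the 55 Flcn iΔEC cells of cluster 7. In cluster 2 they made up 17 of the 49 control and 11 of the 54 Flcn iΔEC cells. In the clusters that only 1 library filled, Eln was at 18611 CPM in cluster 5 of the control and at 6672 CPM in cluster 16 of the Flcn iΔEC library.

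Markers of other classes moved with this result. The venous markers of venous cells summed to 4203 and 2301 CPM in the control and Flcn iΔEC libraries, with 8 of 8 detected in both. Capillary markers were at 7304 and 2814 CPM, fibroblast markers at 155 and 23.9 CPM, and mural markers at 178 and 52.2 CPM. Lymphatic markers were at 100.1 and 254.6 CPM. The part of these markers in the result was not tested. Prox1 encodes the transcription factor that specifies lymphatic endothelium. In the venous cells without a Prox1 UMI, 44 control and 64 Flcn iΔEC cells, Eln was at 13371 and 4735 CPM (ratio 0.354), and in those with at least 3 Prox1 UMIs, 16 and 54 cells, at 15321 and 5529 CPM (ratio 0.361). Mgp was higher in the former (ratio 1.28, 1.23 to 1.34) and lower in the latter (0.711, 0.681 to 0.742). A cell without a Prox1 UMI is not shown to lack Prox1 RNA.

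**Figure D4:**
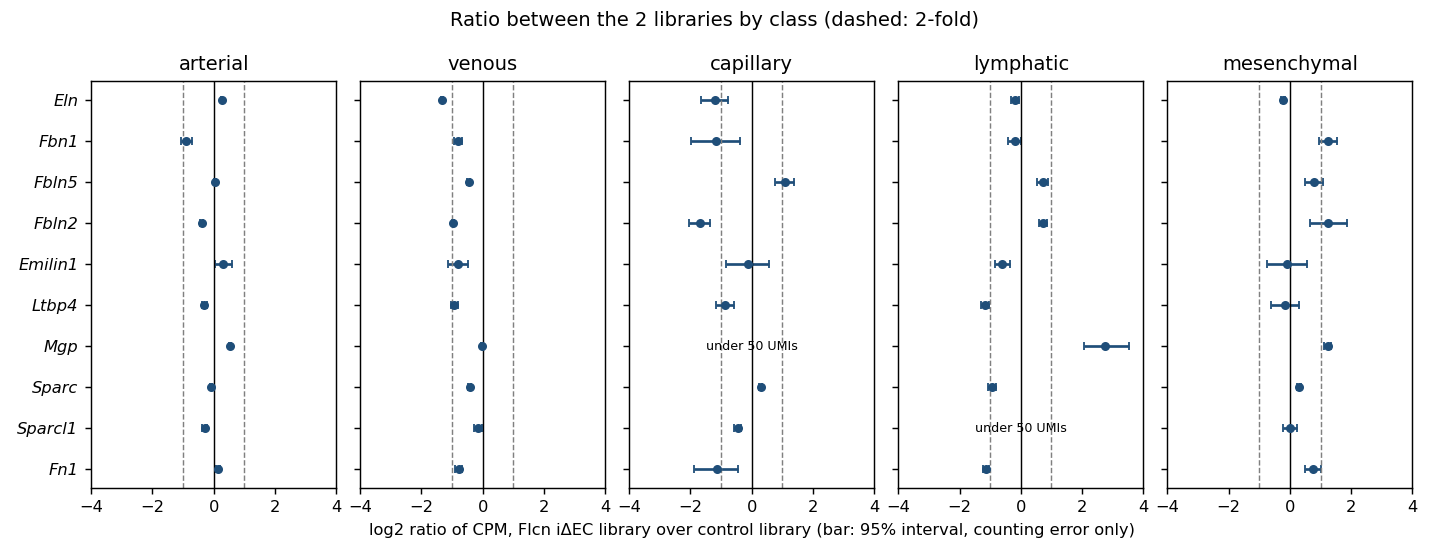
Ratio of CPM between the libraries (horizontal, log2 scale, no count added, Flcn iΔEC over control) for each gene (vertical) in each class, with 95% intervals for counting error only and dashed lines at 2-fold. All 10 points lie below 0 in venous cells, where the lowest is Eln (ratio 0.398), and they lie on both sides of 0 in the other classes.

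Capillary cells held few UMIs of most fibre genes, and their ratios were the least stable. Of the 9 genes with at least 50 UMIs, 1 was past 2-fold higher in the Flcn iΔEC library and 4 were past 2-fold lower, against 6.92% of 6721 genes (2.96% higher and 3.96% lower). The median log2 ratio was -0.87, against -0.07 over all genes. Fbln2 was at 291 and 89.7 CPM (500 and 86 UMIs, ratio 0.308, 0.242 to 0.388), Eln at 134 and 58.4 CPM (0.435), Fbn1 at 41.9 and 18.8 CPM (0.448) and Fn1 at 50.6 and 22.9 CPM (0.453). Fbln5 was at 93.6 and 198 CPM (ratio 2.12, 1.71 to 2.63), but 1 cell held 42.1% of its UMIs in the Flcn iΔEC library, and without it and its counterpart in the control the log2 ratio was 0.58 in place of 1.08. In capillary cells of cluster 6 the ratio of Fbln2 was 0.40 (0.261 to 0.592) and that of Eln 0.801 (0.496 to 1.25), so Eln did not differ beyond counting error there, while that of Fbln5 was 3.49 (2.16 to 5.68). Sparc, the abundant gene of this class, was at 5053 and 6187 CPM (1.22), and Sparcl1 at 1263 and 915 CPM (0.725).

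Lymphatic cells had less Fn1 and Ltbp4 and more Fbln2 and Fbln5 in the Flcn iΔEC library. Fn1 was at 776 CPM in the control and 352 CPM in the Flcn iΔEC library (ratio 0.454, 0.424 to 0.486) and Ltbp4 at 465 and 207 CPM (0.444, 0.407 to 0.486). Fbln2 was at 339 and 558 CPM (1.64) and Fbln5 at 208 and 340 CPM (1.63). Of 9 genes with enough UMIs, 2 were past 2-fold lower and 1, Mgp, past 2-fold higher, against 11.1% of 9968 genes (3.55% higher and 7.54% lower). The median log2 ratio was -0.21, against -0.22 over all genes, and relative to that shift Fn1 and Ltbp4 lay inside 2-fold, with log2 ratios of -0.92 and -0.95. Sparc was at 0.520, Emilin1 at 0.658, Fbn1 at 0.867 and Eln at 0.879 of the control.

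By cluster, Fn1 was lower in lymphatic cells of 4 of the 5 clusters compared. In cluster 12, whose leading genes were Aqp8, Apobec2 and Sbspon, Fn1 was at 1724 CPM in 11 control cells and 545 CPM in 109 Flcn iΔEC cells (ratio 0.316, 0.284 to 0.352). In cluster 11, led by genes such as Lyve1 and Reln, it was at 695.5 and 230 CPM (0.331), and in cluster 0 at 673 and 122 CPM (0.182). In cluster 2, with 7 control and 26 Flcn iΔEC cells, the ratio was 0.504 (0.402 to 0.637), and in cluster 9, with 5 and 15 cells and leading genes Marco, Ccl2 and F8, Fn1 was at 273 and 249.6 CPM (0.914, 0.637 to 1.33) and did not differ beyond counting error. Ltbp4 was lower in all 5, with ratios of 0.652 in cluster 12, 0.667 in cluster 11, 0.523 in cluster 0, 0.306 in cluster 2 and 0.407 in cluster 9. Fbln2 and Fbln5 had ratios of 2.65 and 2.35 in cluster 12 and of 2.10 (1.61 to 2.77) and 2.48 (1.71 to 3.73) in cluster 2. In cluster 9 the ratio of Fbln5 was 2.58 (1.27 to 5.92), and Fbln2 was counted at 0 UMIs among the 5 control cells and at 28 UMIs among the 15 Flcn iΔEC cells. Their ratios were 1.15 and 1.29 in cluster 11 and 0.897 and 0.964 in cluster 0, and these intervals held 1. Cluster 14, with 0 control cells, had 647 CPM of Fbln2 and 408 CPM of Fbln5. By marker lists, Fn1 was at 1037 and 503 CPM in the lymphatic cells led by collecting and valve markers and at 564 and 221 CPM in those led by lymphatic capillary markers.

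**Figure D5:**
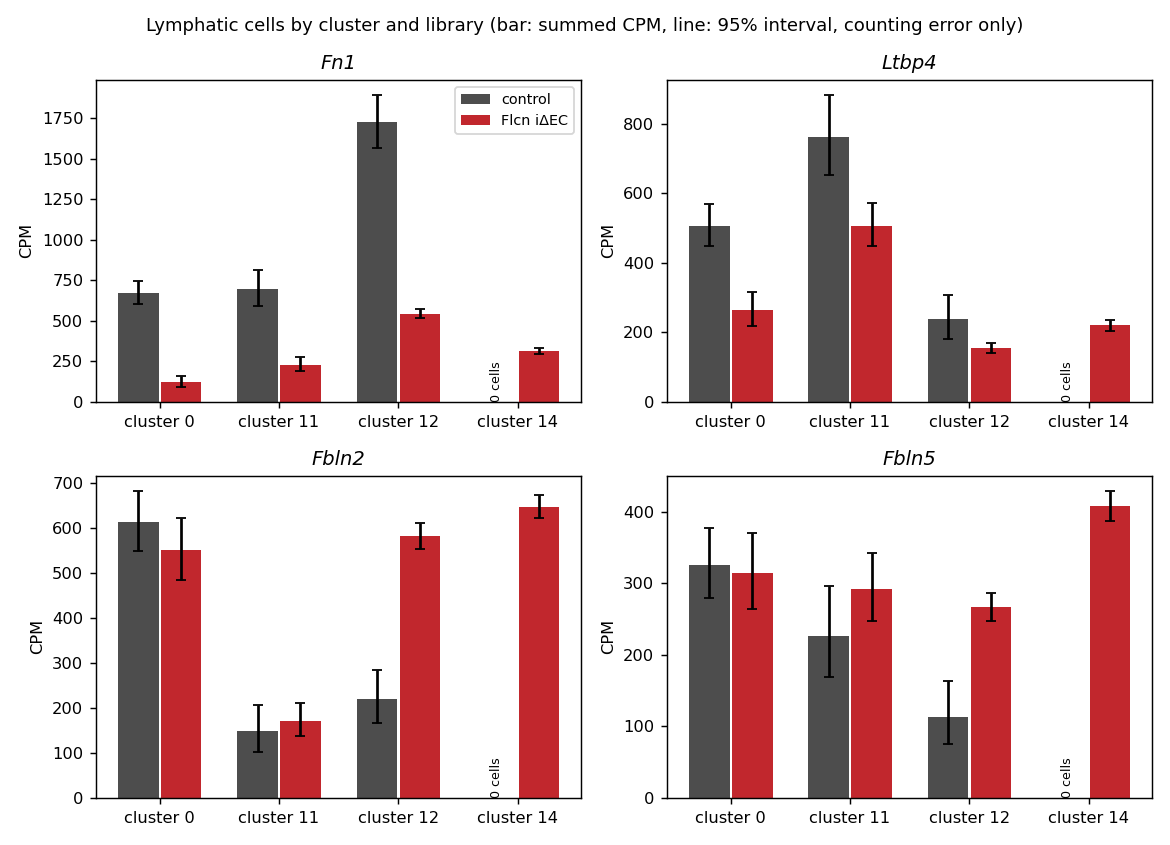
Summed CPM (vertical, from 0) of Fn1, Ltbp4, Fbln2 and Fbln5 in lymphatic cells of clusters 0, 11, 12 and 14 (horizontal; clusters 2 and 9 are not drawn), control grey and Flcn iΔEC red, with 95% intervals for counting error only; cluster 14 had 0 control cells. Fn1 is lower in the Flcn iΔEC library in clusters 0, 11 and 12, and Fbln2 is higher in cluster 12 (219 and 581 CPM) but not in clusters 0 and 11.

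The ratio of Mgp in lymphatic cells, 6.72 (4.17 to 11.6), came from few cells. Control cells had 17 Mgp UMIs and Flcn iΔEC cells 735, of which a single cell held 61.6%. That cell lay in the arterial-led cluster 8, had 5 UMIs of Gja5 and 3 of Prox1, and also held 37.0% of the Eln UMIs of the class. Without it Mgp was at 30.5 CPM (27.1 to 34.3) and Eln at 225 CPM in the Flcn iΔEC lymphatic cells. The control without its own top cell for each gene had 8.37 CPM of Mgp (4.33 to 14.6) and 396.5 CPM of Eln. The ratio of Mgp stayed past 2-fold in 14 of 15 settings. An Mgp UMI was found in 17.7% of control and 19.5% of Flcn iΔEC lymphatic cells, and in 6.37% and 13.3% of lymphocytes, with median depths of 17518 and 24510 against 7208 and 8066 UMIs. With each cell thinned to 2000 UMIs these shares were 0 of 62 cells, which allows up to 4.84%, and 0.929% in lymphatic cells, and 1.56% and 3.21% in lymphocytes, so Mgp in most lymphatic cells was not above background. The thinned share of cells with Eln, 40.3% and 27.6%, was above the 5.58% and 5.54% of lymphocytes (without thinning, 93.6% and 86.1% of lymphatic cells and 18.9% and 20.9% of lymphocytes).

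Mesenchymal cells had more Fbn1 in the Flcn iΔEC library, and their higher sums of Fbln2 and Mgp came from few cells. Fbn1 was at 327 and 770 CPM (ratio 2.36, 1.94 to 2.88), Fbln2 at 78.8 and 188 CPM (2.39, 1.59 to 3.64) and Mgp at 1968 and 4612 CPM (2.34, 2.16 to 2.54). These were the 3 genes past 2-fold, all higher, against 2.82% of 2800 genes with a higher level and 5.64% in either direction. The median log2 ratio was 0.53, against -0.03 over all genes. Fn1 (1.68) and Fbln5 (1.72) were nearest to these 3 genes, and Eln (0.858), Emilin1 (0.938) and Ltbp4 (0.894) had ratios under 1. In the cells led by fibroblast markers, 19 control and 20 Flcn iΔEC cells, Fbn1 was at 403 and 1040 CPM (2.58) and Fbln5 at 336 and 771 CPM (2.30), while Mgp was at 3172 and 2198 CPM (0.693). In those led by mural markers Fn1 was at 307 and 1168 CPM (3.80) and Mgp at 11.6 and 9008 CPM, and 1 cell held 69.3% of the Mgp UMIs of the whole Flcn iΔEC class. Without the cell with most Mgp in each library the log2 ratio was 0.33 in place of 1.23, and without that with most Fbn1 the ratio of Fbn1 was 0.94 in place of 1.23 on the log2 scale. For Fbln2, 5 cells held 74.3% of its 35 UMIs in the control and 84.7% of its 85 UMIs in the Flcn iΔEC library, the median cell was at 0 CPM in both, and 3 of 30 cells had a UMI in both after thinning to 2000 UMIs. Its log2 ratio was 0.47 as the mean of the per-cell CPM and turned to -0.89 when a limit of 4 Cdh5 UMIs divided endothelial from other cells. Fibroblast markers of the mesenchymal cells summed to 24719 and 39423 CPM, with 8 of 8 detected in both, and their part in these ratios was not tested.

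Other genes of elastic fibre assembly past 2-fold were mostly lower in the endothelial classes of the Flcn iΔEC library. Of 25 such genes, 12 had enough UMIs in arterial cells, with 0 past 2-fold higher and 2 lower, and 14 in venous cells, with 0 higher and 5 lower. In capillary cells the counts were 0 higher and 4 lower of 8, in lymphatic cells 1 and 4 of 14, and in mesenchymal cells 1 and 1 of 14. Of all genes with enough UMIs, 2.65% were higher and 4.53% lower in arterial, 2.81% and 4.81% in venous, 2.96% and 3.96% in capillary, 3.55% and 7.54% in lymphatic, and 2.82% and 2.82% in mesenchymal cells. The median log2 ratios of the list were -0.38 in arterial, -0.72 in venous, -0.97 in capillary, -0.60 in lymphatic and -0.07 in mesenchymal cells, against -0.14, -0.08, -0.07, -0.22 and -0.03 over all genes. Ltbp1, which encodes another latent TGF-β binding protein, was at 48.3 and 5.89 CPM in arterial and 99.0 and 24.1 CPM in lymphatic cells, and Tgfb2, which encodes a TGF-β ligand, at 125 and 23.0 CPM in arterial cells. In venous cells Mfap5, a microfibril gene, was at 209 and 46.7 CPM, and Lox, the lysyl oxidase that crosslinks elastin, at 148 and 41.3 CPM, whereas Lox was at 295 and 236 CPM in arterial cells. Mfap2, another microfibril gene, was at 78.5 and 4.17 CPM in capillary and 265 and 81.6 CPM in lymphatic cells. Mmrn1, which encodes a multimerin, was at 42.5 and 3.13 CPM in capillary cells, and it was among the lymphatic markers that set the classes. In mesenchymal cells Mfap5 was at 354 and 1201 CPM and Ltbp2 at 104 and 26.5 CPM, and Ltbp2 was at 3.46 and 14.6 CPM in lymphatic cells. The genes with the highest level of this list were Mmrn2 (580 and 685 CPM) and Lox in arterial cells, and Mfap4 (937 and 730 CPM) and Mfap5 in mesenchymal cells.

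Among the other matricellular genes, the widest ratios were those of Thbs1 and Spp1. Of 24 genes, 1 was past 2-fold higher and 2 were lower among 9 with enough UMIs in arterial cells, 2 and 3 of 13 in venous, 1 and 2 of 9 in capillary, 1 and 5 of 15 in lymphatic, and 5 and 3 of 18 in mesenchymal cells. Over all genes, between 2.65% (arterial) and 3.55% (lymphatic) were higher and between 2.82% (mesenchymal) and 7.54% (lymphatic) lower. The median log2 ratios of the list were -0.47 in arterial, -0.52 in venous, -0.20 in capillary, -0.68 in lymphatic and 0.26 in mesenchymal cells. Thbs1, the gene of thrombospondin-1, was at 14.2 and 184 CPM in arterial cells (ratio 13.0, 8.85 to 19.9), 136 and 403 CPM in venous, 140 and 326 CPM in lymphatic and 54.1 and 164 CPM in mesenchymal cells. Spp1, the gene of osteopontin, was at 62.9 and 0.809 CPM in venous and 1212 and 8.85 CPM in mesenchymal cells, and Spp1 was also among the leading genes of cluster 5. Igfbp7, a secreted binding protein of small vessels, was at 814 and 138 CPM in arterial cells and Nid2, a basement membrane gene, at 21.5 and 5.30 CPM. In venous cells Tgfbi was at 34.0 and 102.5 CPM and Nov at 40.6 and 9.71 CPM, and in lymphatic cells Tnc, the gene of tenascin-C, was at 54.0 and 11.3 CPM and Tgfbi at 65.8 and 21.1 CPM. Capillary cells had 358 and 127 CPM of Fstl1, 61.1 and 21.9 CPM of Ctgf and 13.96 and 42.7 CPM of Ecm1. Mesenchymal cells had 40.5 and 137 CPM of Thbs3 and 261 and 104.0 CPM of Ctgf. The highest levels of this list were those of Fstl1 (1614 and 1554 CPM) and Igfbp7 in arterial cells, and of Igfbp7 (2135 and 2471 CPM) and Fstl1 (1056 and 1843 CPM) in mesenchymal cells.

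Integrins and other receptors for these matrix proteins were counted in the same way. Of 20 genes, 1 was higher and 2 were lower among 15 in arterial cells, 1 and 2 of 14 in venous, 2 and 0 of 11 in capillary, 1 and 4 of 14 in lymphatic, and 0 and 0 of 10 in mesenchymal cells. The shares over all genes were again 2.65% higher and 4.53% lower in arterial, 2.81% and 4.81% in venous, 2.96% and 3.96% in capillary, 3.55% and 7.54% in lymphatic, and 2.82% each way in mesenchymal cells. The list's median log2 ratio was 0.24 in arterial, -0.62 in venous, 0.05 in capillary, -0.36 in lymphatic and -0.17 in mesenchymal cells. Plxdc2 was at 9.97 and 26.5 CPM in arterial and 8.04 and 19.0 CPM in venous cells. Cd36, which encodes a receptor of thrombospondin-1 and fatty acids, was at 174 and 39.5 CPM in arterial and 300.3 and 133 CPM in venous cells. Cd36 was among the capillary markers that set the classes, so its level in a class depends on that sorting. The integrin genes Itga6, at 112 and 37.1 CPM in arterial cells, and Itga2, at 20.5 and 10.1 CPM in venous cells, were lower too. In capillary cells Itga4 was at 15.1 and 42.7 CPM and Sdc4 at 32.6 and 89.7 CPM. In lymphatic cells Itgb8 was at 20.8 and 3.98 CPM, Itga4 at 15.2 and 3.66 CPM, and Itgb3 at 3.46 and 13.7 CPM. Itgb1, the common β1 integrin chain of fibronectin and collagen receptors, was the highest of the list, with 918 and 1006 CPM in arterial and 549.5 and 668 CPM in mesenchymal cells, followed by Cd47 with 342 and 366 CPM and 290.5 and 336 CPM. Itgb1 stood at 535 and 401.5 CPM in the lymphatic cells, where Fn1 was lower.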

How the data were processed

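Mesenteric CD31+ cells were profiled with a 3′ droplet kit (1 control, 1 Flcn iΔEC library). The authors aligned reads and counted UMIs with Cell Ranger 3.0 per the submitters' processing notes (3.0.1 per the file headers) on mm10. The deposited values are raw UMI counts of 28692 genes per cell, without normalization. Of these genes, 28339 (98.8%) were matched to a GRCm38 annotation for positions. A second Ltbp4 identifier held 0 counts in both libraries.

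All cells were kept, and no integration was used. Python 3.11.15 was used, with scipy 1.17.1 for intervals, pandas 2.3.3 and numpy 2.4.6 for tables, and matplotlib 3.10.9 for figures. Endothelial cells had at least 2 Cdh5 UMIs and were scored by the mean z-score of each list of arterial, venous, capillary, lymphatic, high endothelial venule and haematopoietic markers. A class needed a score above 0 and a lead of 0.2. Leads within 0.1 of the limit of 0.2 counted as near it, which held for 3 control and 8 Flcn iΔEC arterial, 11 and 22 venous, 14 and 2 capillary, and 9 and 14 lymphatic cells. The median of the next best score was -0.12 and -0.12 in arterial, 0.01 and -0.17 in venous, 0.28 and 0.29 in capillary, and 0.20 and 0.02 in lymphatic cells. Mesenchymal cells had under 3 mesothelial markers. Lymphocytes had UMIs of Ptprc and of a T or B cell marker and none of Cdh5. Clusters of endothelial cells were made with scanpy 1.11.5 (Leiden with leidenalg 0.10.2, 2000 features without the 10 genes, 30 components, 15 neighbours, resolution 0.8). Leading genes had at least 100 CPM. Scrublet called 142 control cells (2.08%) and 37 Flcn iΔEC cells (0.830%) doublets, with 7 and 3 among the endothelial cells, and they were kept in the main values.

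UMIs were summed per class and library. Summed counts have exact Poisson intervals and ratios have exact conditional intervals, both at 95%. The limit of a count of 0 is 3 counts. Log2 ratios had 1 UMI added, and genes entered with at least 50 UMIs over both libraries. The calculation of ratios was run on simulated counts with planted changes at the depth of the arterial sums. These counts held counting error only, so the run cannot show how animals or libraries vary. The members, the lists and the limits were chosen with earlier results of these data known. Genes named beside the 10 are, per list and class, those with the 2 largest log2 ratios each way where past 2-fold, the 2 with the highest level in arterial and in mesenchymal cells, and the 3 nearest in pattern to each of the 10, of which 1 is not reported here. Values for Lox and Itgb1 in further classes were added after they were seen. Alternatives changed the cell filter, the Cdh5 limit, doublets, Ptprc-positive cells, the markers, the classes, the lead, the scaling, the weighting of cells, the background and the count minimum.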

Additional observations from a re-analysis of the deposited data

Results flagged for a closer look

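Fbn1 and Fbln2 differed between the libraries in opposite directions in 2 classes, past 2-fold in both. The log2 ratio of Fbn1 (Flcn iΔEC over control) was 1.23 in mesenchymal cells and -1.10 in capillary cells, and that of Fbln2 was 1.23 in mesenchymal cells and -1.68 in capillary cells. Either class was 1 library per condition, and the difference between the classes was not tested. Fbn1 had 72 UMIs in control and 18 in Flcn iΔEC capillary cells, and Fbln2 had 35 UMIs in control and 85 in Flcn iΔEC mesenchymal cells.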

How the results depend on the processing

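No paired analysis was possible because each condition had 1 library and the labels give no shared replicate numbers, and no replicate could be left out. The count of genes past 2-fold was 0 in arterial cells in all alternatives run. In venous cells it was 1 and became 3 without cells with a Ptprc UMI, 4 with classes by clusters and 2 with the mean of the per-cell CPM. Capillary cells had 5, which became 2 with at least 1 Cdh5 UMI, without cells with a Ptprc UMI, with a lead of 0.4 and with the mean of the per-cell CPM. The 3 genes of lymphatic cells became 1 with median-of-ratios scaling, which moved the median of all genes by 0.22 on the log2 scale, and the 3 genes of mesenchymal cells became 1 with at least 4 Cdh5 UMIs, with the mean of the per-cell CPM and without the cell with the most UMIs. This last setting, the one without proliferating cells and the equal weight for 2 arterial clusters were chosen after seeing the data. Log2 ratios past 2-fold that changed sign were those of Fbln2 in mesenchymal cells (-0.89 with at least 4 Cdh5 UMIs), of Fbln5 in capillary (-1.02) and Mgp in lymphatic cells (-0.0031) with classes by clusters, and of Fn1 in capillary cells (0.23 with a lead of 0.4), and the cause was not tested. Eln in venous cells stayed between -1.51 and -1.20 on the log2 scale under the 15 settings. Median-of-ratios scaling moved the share of higher among all genes past 2-fold from 36.9% to 51.9% in arterial cells, and it moved that share from 32.0% to 55.5% in lymphatic cells.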
